A study of Homo sapiens with 30 samples.

Results

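The box H/ACA small nucleolar RNAs and the small Cajal body RNAs were taken as every symbol of the run-on count table that starts with SNORA or SCARNA followed by a digit. This gave 132 of 26475 genes, 108 SNORA and 24 SCARNA. The run-on data are 18 global run-on libraries (GRO-seq) from nuclei of HT1080, a human fibrosarcoma cell line, at passages 10 to 15. In this assay engaged polymerases extend their transcripts with a bromouridine label, and the labelled RNA is pulled down with an anti-BrdU antibody and sequenced. The 6 groups of 3 repeats are hNABP2 (hSSB1) KO, hNABP1 (hSSB2) KO and WT, each with NTP and with no NTP, the reaction without nucleotides being the background of the pulldown. Peak lists were also used from anti-hNABP2 ChIP of WT cells (2 libraries) and from DRIP without RNase H, in which the S9.6 antibody binds RNA:DNA hybrids (2 hNABP2 KO and 2 WT libraries). No agent was applied to any group beyond standard culture, and the sources used here do not say what kind of knockout was made or how many clones each line is.

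H/ACA RNAs fold into hairpins that guide the conversion of uridine to pseudouridine. Each is bound by the synthase dyskerin (DKC1) with NOP10, NHP2 and GAR1. Most guide changes in ribosomal RNA inside the nucleolus, whereas SCARNAs carry signals that keep them in Cajal bodies, where they guide changes in spliceosomal RNAs. The SCARNA class also holds box C/D RNAs, which guide ribose methylation, and RNAs with both kinds of box. In human cells nearly all are cut from introns of host genes and are then stable for long periods, so a mature copy and a freshly made one can give the same read.

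Total counts ran from 5272 to 164357 per library, and repeat 3 held 82.6% of all counts, against 11.0% in repeat 1 and 6.38% in repeat 2. A count of 0 allows up to 18.3 CPM (3 counts) in the deepest library and up to 569 CPM in the shallowest. NABP2 had 4, 3 and 15 counts in repeats 1 to 3 labelled hNABP2 KO with NTP, against 4, 0 and 8 in WT with NTP. NABP1 had 0, 1 and 18 in those labelled hNABP1 KO with NTP, against 1, 0 and 19 in WT with NTP. The targeted genes were thus not lower in the libraries that carry their KO label, and genotype names below are the labels. All 10 mesenchymal HT1080 markers had counts, 871 in all, including VIM, FN1 and THBS1. The 5 epithelial, 5 leukocyte and 5 neural markers had 55, 73 and 129. In bulk libraries, fewer cells of a type and less RNA per cell cannot be told apart.

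Few of these RNAs were counted at all. Over the 18 libraries, 57 of the 132 had any count (43.2%), 45 SNORA and 12 SCARNA, while 75 stayed at 0. This compares with 86.6% of all genes and with 35.8% of the 279 box C/D symbols (SNORD). The loci are short, 121 to 421 bp with a median of 134, and lie inside the span of another gene in 130 of 132 cases. The 132 together had 463 counts, and 3 to 20 of them had a count in any 1 library. Of the 57, 26 were seen in 1 library only, and 8 had counts in all 3 repeat numbers.

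The counts were concentrated in 6 RNAs, which held 343 of 463 (74.1%). SNORA73A and SNORA73B, near-identical copies of U17, an H/ACA RNA that acts in the early cleavage of pre-ribosomal RNA instead of guiding a modification, had 112 and 40. SCARNA12, a guide for the U5 spliceosomal RNA, had 85, and SCARNA2, a box C/D guide for the U2 spliceosomal RNA, had 61. SNORA63 and SNORA16A, which guide changes in the large ribosomal subunit RNA, had 23 and 22. SNORA70G followed with 10, SNORA57 with 8, SNORA76C with 7 and SNORA70B with 5. SCARNA10, SCARNA17, SCARNA6, SCARNA9, SNORA45A, SNORA64, SNORA68 and SNORA71C had 4 each. SNORA49 and SNORA71A had 3 each, the last counts among the 20 highest, and SNORA78 and SNORA7B, just outside, also had 3. How reads were divided between the SNORA73 copies, and within the SNORA70 and SNORA71 families, is not stated by the sources used, so single copies are uncertain.

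**Figure D1:**
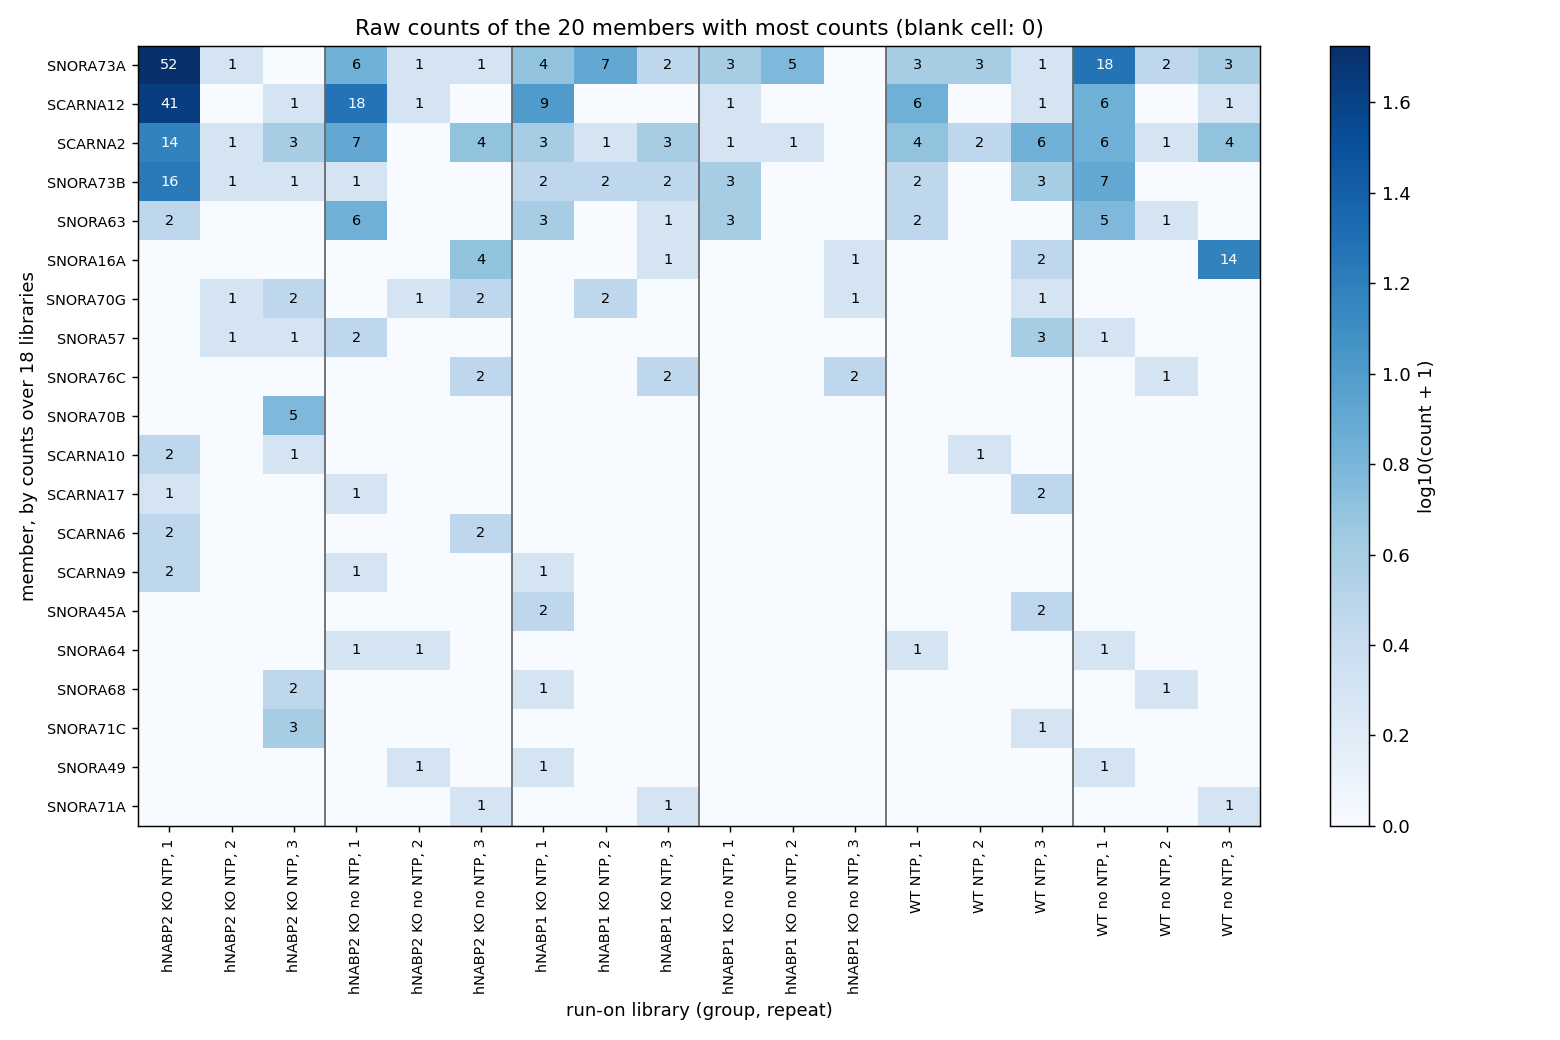
Raw run-on counts of the 20 SNORA and SCARNA genes with most counts (rows) in each of the 18 libraries (columns, group and repeat), with the colour on a log10(count + 1) scale. The highest cells, 52 for SNORA73A and 41 for SCARNA12, are both in hNABP2 KO with NTP, repeat 1, and most cells are 0.

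SNORA73A lies at chr1:28507365-28507571 (hg38), inside SNHG3 and RCC1. It had 52, 1 and 0 counts in repeats 1 to 3 of hNABP2 KO with NTP, against 6, 1 and 1 with no NTP. In hNABP1 KO it had 4, 7 and 2 with NTP, against 3, 5 and 0 with no NTP. In WT it had 3, 3 and 1 with NTP, against 18, 2 and 3 with no NTP. The high libraries were thus 1 with NTP and 1 without, both of repeat 1, and the ranges of the paired groups overlapped in all 3 genotypes. As levels, it averaged 936 ± 1491 CPM in hNABP2 KO with NTP and 234 ± 295 CPM with no NTP (SD, n = 3 each). The means were 435 ± 459 CPM with NTP and 411 ± 394 CPM with no NTP in hNABP1 KO, and 255 ± 252 CPM with NTP and 829 ± 979 CPM with no NTP in WT (SD, n = 3 each).

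SNORA73B, the neighbouring copy at chr1:28508558-28508762, was also highest in repeat 1 of hNABP2 KO with NTP. It had 16, 1 and 1 counts in hNABP2 KO with NTP, against 1, 0 and 0 with no NTP. It had 2, 2 and 2 in hNABP1 KO with NTP, against 3, 0 and 0 with no NTP, and 2, 0 and 3 in WT with NTP, against 7, 0 and 0 with no NTP. Summing the pair sets aside the split between the copies, though not any shared reads dropped or counted for both. As a sum, hNABP2 KO averaged 1262 ± 1920 CPM with NTP and 265 ± 349 CPM with no NTP (SD, n = 3 each). The pair averaged 589 ± 580 CPM with NTP and 560 ± 488 CPM with no NTP in hNABP1 KO. In WT it averaged 317 ± 258 CPM with NTP and 1082 ± 1415 CPM with no NTP (SD, n = 3 each).

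SCARNA12 (chr12:6967337-6967606, inside PHB2, which encodes prohibitin 2) was almost wholly a repeat 1 signal, with 81 of its 85 counts there. Those libraries had 41 counts with NTP and 18 with no NTP in hNABP2 KO, 9 and 1 in hNABP1 KO, and 6 and 6 in WT. In the other 12 libraries it never had more than 1 count. PHB2 itself had 7 of its 46 counts in repeat 1 and 38 in repeat 3, a split close to that of all counts.

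SCARNA2 (chr1:109100193-109100612), transcribed from its own promoter in human cells and outside any gene span here, was spread more evenly. It had 14, 1 and 3 counts in hNABP2 KO with NTP, against 7, 0 and 4 with no NTP. It had 3, 1 and 3 in hNABP1 KO with NTP, against 1, 1 and 0 with no NTP, and 4, 2 and 6 in WT with NTP, against 6, 1 and 4 with no NTP. SCARNA2 was seen with NTP in all 9 libraries. Its with-NTP and no-NTP levels overlapped in every genotype.

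SNORA63 (chr3:186787299-186787433, inside EIF4A2, a translation initiation factor gene) had 21 of 23 counts in repeat 1. Those were 2 with NTP and 6 with no NTP in hNABP2 KO, 3 and 3 in hNABP1 KO, and 2 and 5 in WT. EIF4A2 had 28 of 49 counts in repeat 1. SNORA16A (chr1:28580920-28581053, inside SNHG12, a non-coding host gene) did the opposite, with all 22 counts in repeat 3. Repeat 3 of hNABP2 KO had 0 with NTP and 4 with no NTP, that of hNABP1 KO had 1 and 1, and that of WT had 2 with NTP and 14 with no NTP. In WT repeat 3 this is 12.2 CPM with NTP and 727 CPM with no NTP, and SNHG12 had 7 counts with NTP and 1 with no NTP in the same pair of libraries.

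Per length, within repeat 1, SCARNA12 had a median of 2708 CPM per kb over 6 libraries, SNORA63 2661, SNORA73A 2457, SNORA73B 1533 and SCARNA2 1172, and SNORA16A was at 0. The ranges of the first 5 overlapped (for SCARNA12, 553 to 7755 CPM per kb), so neighbours in that order did not differ beyond their spread. In repeat 3, SNORA16A had the highest median, 202 CPM per kb, with a range of 0 to 5428.

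Summed over the class, the SNORA and SCARNA genes held 61.8% of their counts in repeat 1, the repeat with 11.0% of all counts. SCARNA had 76.9% there and SNORA 53.1%. Most of this came from few RNAs and is not a trait of each. Of the 286 counts in repeat 1, SNORA73A had 86, SCARNA12 81, SCARNA2 35, SNORA73B 31 and SNORA63 21. SNORA16A had 0 of its 22 there. Without SNORA73A and SNORA73B the repeat 1 share was 54.3% of 311 counts. By contrast the 643 SNORD counts had 7.78% in repeat 1, the 141 spliceosomal RNU counts 16.3%, and a fixed list of 36 snoRNA host genes, 23 of them around a SNORA or SCARNA locus, 21.7% of 1096. RMRP, another short stable non-coding RNA, had 41.7% of its 1350 counts in repeat 1, so a high repeat 1 share was not particular to SNORA and SCARNA. Pooled shares in repeat 1 were lower for RN7SK, 11.4% of 1597 counts, and for the telomerase RNA TERC, 17.9% of 28. For RN7SK, however, 1 library alone held 674 of the 1597 counts. Its share of a library's counts had a median of 0.230% in repeat 1 and 0.122% in repeat 3, with overlapping ranges. Without hNABP2 KO with NTP, repeat 1, which alone held 139 of the 463 counts (30.0%), repeat 1 still had 45.4% of the remaining 324. The class share was 0.150% to 0.710% of counts over the 6 repeat 1 libraries, 0.0834% to 0.172% over repeat 2 and 0.0156% to 0.130% over repeat 3. Repeat 1 and repeat 3 libraries did not overlap. They did not overlap for RMRP either, at 0.434% to 1.46% of counts in repeat 1 and 0.0377% to 0.234% in repeat 3. HT1080 markers moved with the repeats as well, at 0.322% to 0.813% of counts in repeat 1 and 0.0587% to 0.239% in repeat 3, and their part in the result was not tested.

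**Figure D2:**
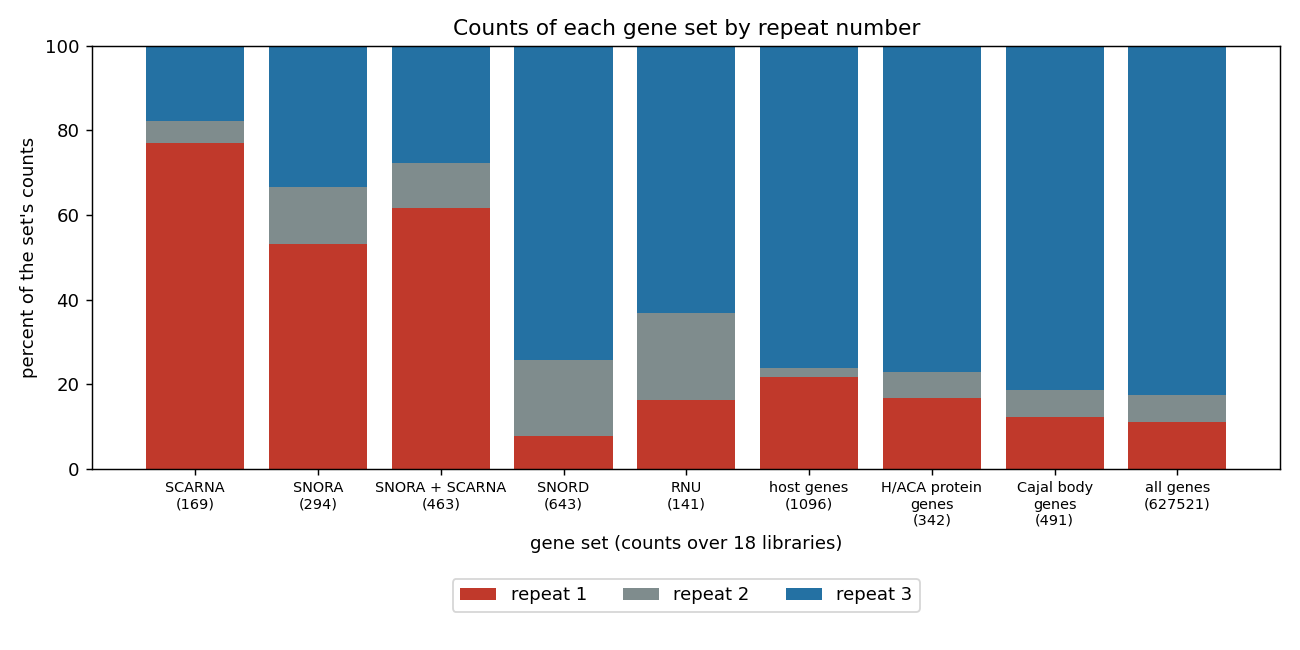
Percent of each gene set's counts (vertical axis) that came from repeat 1, 2 or 3 (stacked colours), summed over 6 groups; the number under each bar is the set's total count. SCARNA (76.9%) and SNORA (53.1%) are mostly repeat 1, whereas SNORD (7.78%) and all genes (11.0%) are mostly repeat 3. Of the 156 SNORA counts in repeat 1, SNORA73A holds 86 and SNORA73B 31, and of the 130 SCARNA counts there SCARNA12 holds 81.

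Addition of NTP did not move the class in 1 direction. Its share in hNABP2 KO was 0.710%, 0.122% and 0.0224% with NTP in repeats 1 to 3, against 0.417%, 0.0834% and 0.0264% with no NTP. In hNABP1 KO it was 0.234%, 0.172% and 0.0156% with NTP, against 0.179%, 0.110% and 0.0210% with no NTP. In WT it was 0.150%, 0.136% and 0.0201% with NTP, against 0.510%, 0.114% and 0.130% with no NTP. The share was higher with NTP in repeats 1 and 2 of both KO labels and in repeat 2 of WT, and lower in the other 4 pairs. Exact 95% binomial intervals, which cover counting error only, were apart in 3 of 9 pairs. They were 0.597% to 0.838% with NTP and 0.303% to 0.560% with no NTP in hNABP2 KO repeat 1. They were 0.0891% to 0.237% with NTP and 0.375% to 0.677% with no NTP in WT repeat 1, and 0.0138% to 0.0282% with NTP and 0.0841% to 0.192% with no NTP in WT repeat 3.

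The group means differed by less than the larger of their SDs in every pair. They were 0.285 ± 0.372% with NTP and 0.176 ± 0.211% with no NTP in hNABP2 KO (SD, n = 3 each). They were 0.141 ± 0.113% with NTP and 0.103 ± 0.0793% with no NTP in hNABP1 KO, and 0.102 ± 0.0714% with NTP and 0.251 ± 0.224% with no NTP in WT (SD, n = 3 each). Of all counts in the table, 73.1% came from libraries with NTP, of counts of the fixed host list 78.2%, of the SNORA and SCARNA counts 62.4% and of SNORD counts 49.5%. These pooled shares depend on how each set is spread over repeats of unlike depth. Repeat 3 held 82.6% of all counts but 27.6% of the SNORA and SCARNA counts. The pooled shares therefore do not compare the effect of NTP between sets.

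**Figure D3:**
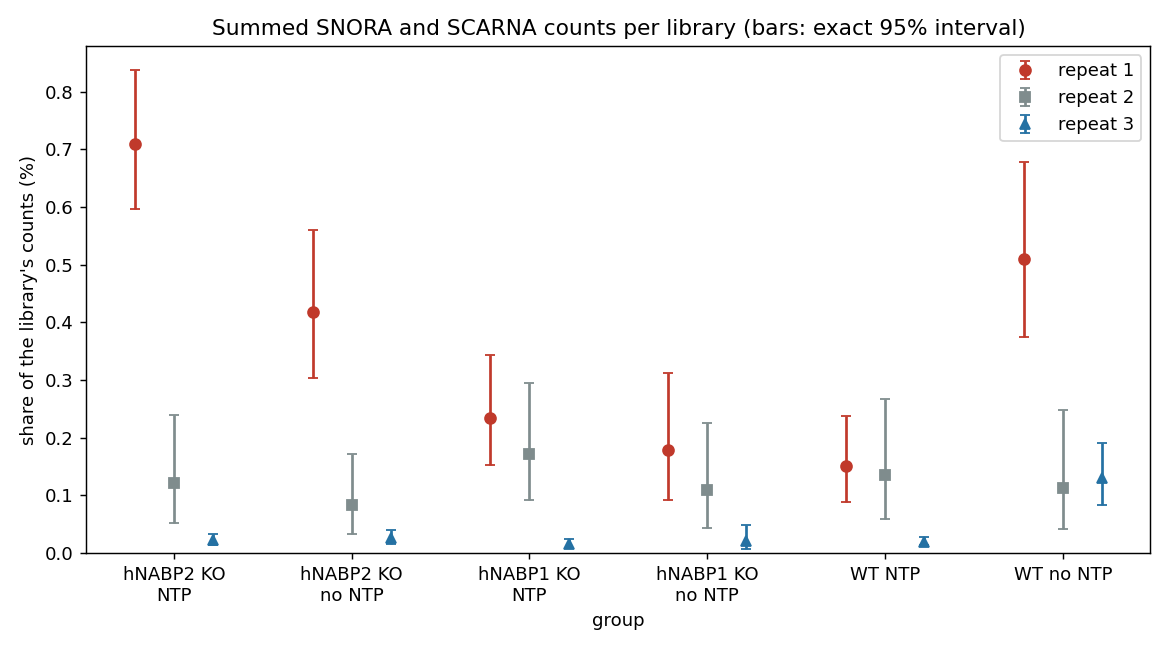
Share of each library's counts held by the 132 SNORA and SCARNA genes (vertical axis, percent) by group, with 1 point per repeat and exact 95% binomial intervals. In hNABP2 KO the repeat 1 point is higher with NTP (0.710%) than with no NTP (0.417%), while in WT it is lower with NTP (0.150%) than with no NTP (0.510%).

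Tests across all genes could reach very few of these RNAs. The expression filter of edgeR kept 211 genes in the model of 18 libraries, of which SNORA73A was the only SNORA or SCARNA, and 129 genes in the model of the 9 libraries with NTP, with none. By the quasi-likelihood test of edgeR, the log2 fold change of SNORA73A with NTP over no NTP was 2.55 (SE 1.54, adjusted p = 0.998) in hNABP2 KO. It was 0.49 (SE 1.58, adjusted p = 0.982) in hNABP1 KO and -1.99 (SE 1.59, adjusted p = 0.997) in WT. The difference of that effect was 4.53 for hNABP2 KO over WT (SE 2.21, unadjusted p = 0.0546, adjusted p = 0.997) and 2.48 for hNABP1 KO over WT (SE 2.24, adjusted p = 0.999). None passed, and neither did any gene in any of the 8 comparisons, so percent called was 0 in each; an unadjusted p under 0.05 was seen for 0 to 6 genes per comparison. DESeq2 and limma voom also called 0. With repeat number as a block, SNORA73A had an edgeR unadjusted p under 0.05 for NTP in hNABP2 KO (adjusted p = 0.992). It also did for the difference of hNABP2 KO over WT (adjusted p = 0.989). Genes with such a p numbered 8 and 4 of 211. Without repeat 1 in every group and without a block, the SNORA73A value for NTP in hNABP2 KO became -0.89. With limma voom it was -0.57, so its direction rested on that repeat and on the tool.

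Among all genes with 10 or more counts, 7 of the 132 entered the 18-library model and 4 the model with NTP only, and 0 were called in any of the 8 comparisons, as were 0% of all 14907 or 13447 genes; 0 to 2 of them per comparison had an unadjusted p under 0.05. With repeat number as a block, 0.00671% of genes were called for NTP in hNABP1 KO, 0.119% for hNABP1 KO over WT and 0.141% for hNABP2 KO over hNABP1 KO, again with 0 of these RNAs. In hNABP2 KO, SNORA73B had a log2 fold change of 3.99 (SE 1.56, edgeR adjusted p = 1) and SNORA73A one of 2.62 (SE 1.24, adjusted p = 1), beside a median of 0.17 over all genes. In hNABP1 KO the largest was 2.58 for SCARNA12 (SE 1.65, adjusted p = 0.500), beside a median of 1.70. In WT, SNORA16A had -4.26 (SE 1.68, edgeR adjusted p = 0.645), beside a median of 0.93, and with repeat number as a block -5.06 (adjusted p = 0.293), the smallest adjusted p of any of the 7. For genotype with NTP, SNORA73A had 2.88 in hNABP2 KO over WT (SE 1.35, edgeR adjusted p = 1.00) and SCARNA12 had 2.58 (SE 1.34, adjusted p = 1.00). SCARNA2 had 0.94 in that comparison, -0.45 in hNABP1 KO over WT and 1.39 in hNABP2 KO over hNABP1 KO, each with an SE between 1.32 and 1.40. In hNABP1 KO over WT the other values were 1.04 for SNORA73A, 1.00 for SNORA73B and 0.71 for SCARNA12. These comparisons share their WT or KO libraries. For none of the 7 did the groups lie wholly apart in CPM. Of the 14907 genes, the groups lay apart in 2.25% for NTP in hNABP2 KO, 2.60% in hNABP1 KO and 2.10% in WT. With NTP they did so in 2.01% for hNABP2 KO over WT, 1.91% for hNABP1 KO over WT and 2.54% for hNABP2 KO over hNABP1 KO.

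**Figure D4:**
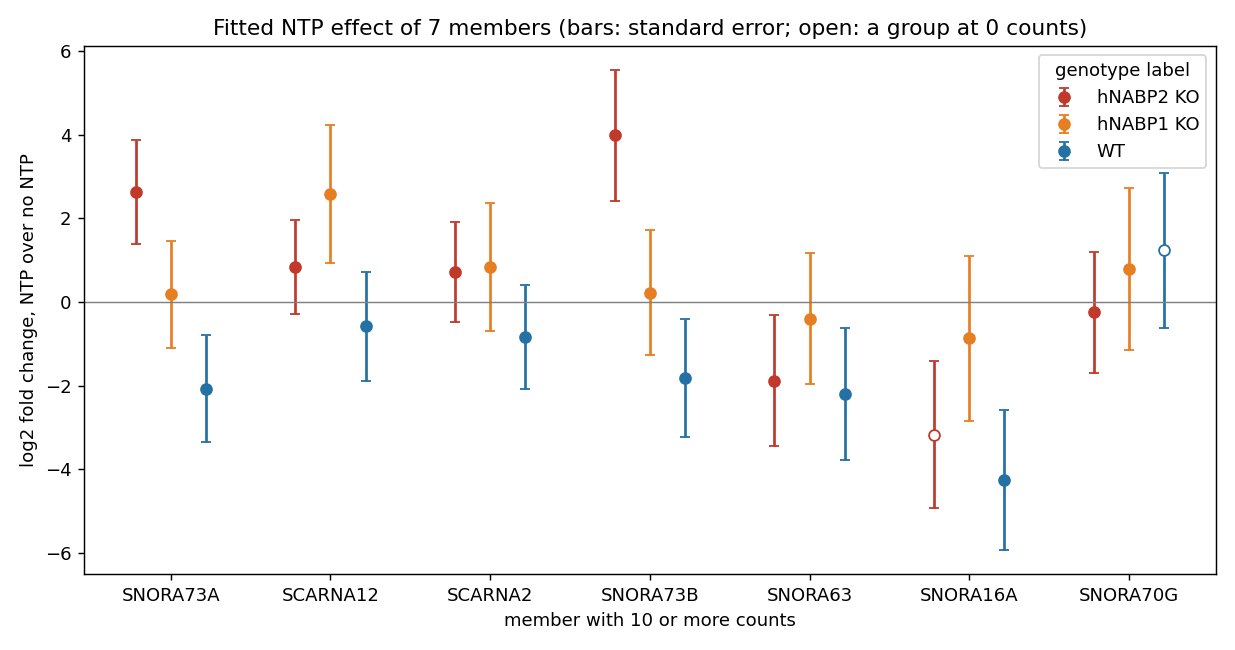
Fitted log2 fold change, NTP over no NTP (vertical axis), of the 7 SNORA and SCARNA genes with 10 or more counts, by genotype label, with standard errors; open points have a group at 0 counts and are no bound. SNORA73A and SNORA73B lie above 0 in hNABP2 KO and below 0 in WT, SNORA16A is lowest in WT (-4.26), and no value passed after adjustment.

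The genes of the H/ACA particle's proteins lay mostly in repeat 3, as all genes did. All 10 particle and assembly genes had counts, 342 in all with 77.2% in repeat 3. They include DKC1 with 33, NHP2 with 45, GAR1 with 23, NOP10 with 11, the assembly factors NAF1 with 17 and SHQ1 with 19, and WRAP53, which brings SCARNAs to Cajal bodies, with 90. Of 12 Cajal body genes, 10 had counts, such as COIL, the coilin scaffold, with 22 and NOLC1 with 43, while SMN1 and SMN2, near-identical copies of each other, were at 0. TERC, the telomerase RNA, which ends in an H/ACA domain, had 28 counts, 20 with NTP and 8 with no NTP. Among genes with 10 or more counts, 0 of 10 particle genes, 0 of 10 Cajal body genes and 0 of 33 genes of the fixed host list passed in either direction in any NTP comparison. That list covers snoRNA hosts in general, and 13 of its 36 genes surround no SNORA or SCARNA locus. Their median log2 fold changes with NTP over no NTP in hNABP2 KO were 0.37, -0.40 and 0.73, in hNABP1 KO 2.00, 3.77 and 1.67, and in WT 0.94, 0.50 and 0.42. The medians over all genes of the same fit were 0.17 in hNABP2 KO, 1.70 in hNABP1 KO and 0.93 in WT. Values near these are therefore no response of the lists.

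Host genes and the RNAs inside them did not always have their counts in the same repeats. SNHG3, around both SNORA73 copies, had 1 of 30 counts in repeat 1 and 29 in repeat 3, and 26 of the 30 were with NTP. SNORA73A had 86 of 112 counts in repeat 1. SNHG12 and SNORA16A both lay in repeat 3, with 38 of 41 and all 22 counts there.

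Run-on peaks overlapped 6 of the 132 loci (4.55%), against 29.9% of all genes and 0 of the 279 SNORD loci. The all-gene shares here and for ChIP and DRIP below count any overlap with a whole gene span. They were not matched to the short loci by length. Of the 6, 4 were among the 24 SCARNAs, at loci of 266 to 420 bp, against a median of 134 over the 132. Longer loci are more easily overlapped, and no correction was made for this. The authors' peak lists were given for the 9 libraries with NTP, 94 to 518 peaks in 8 of them and 9965 in hNABP1 KO repeat 3. Fold here is the authors' enrichment over local background and q is their adjusted p.

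SCARNA2 had a run-on peak in 4 libraries. In hNABP2 KO the peaks had a fold of 1.72 in repeat 1 and 3.50 in repeat 2, with -log10 q of 56.0 and 53.6. In hNABP1 KO they had a fold of 2.23 in repeat 1 and 4.31 in repeat 3, with -log10 q of 45.1 and 38.0. WT had none. SCARNA2 had 14, 1 and 3 counts in hNABP2 KO with NTP, 3, 1 and 3 in hNABP1 KO with NTP, and 4, 2 and 6 in WT with NTP. All 4 peaks lay within the locus and covered 46.9% to 80.7% of it. The lists held 243, 338 and 95 peaks in hNABP2 KO, 518, 431 and 9965 in hNABP1 KO, and 94, 195 and 264 in WT. The difference between genotypes was not tested.

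SCARNA13, a guide for spliceosomal RNAs inside SNHG10, had a peak in hNABP2 KO repeat 1 (fold 1.77, -log10 q 15.9) and repeat 2 (fold 5.33, -log10 q 18.0), and no count in any of the 18 libraries. Its 2 peaks start 8 and 9 bp into the locus and cover 90.2% and 82.2% of it. SCARNA6, inside ATG16L1, had the highest fold, 17.0 (-log10 q 58.3), in hNABP2 KO repeat 2, where it had 0 counts. SCARNA7, inside KPNA4, had a fold of 2.67 (-log10 q 19.1) in WT repeat 1, also with 0 counts. SNORA60 (fold 5.49, -log10 q 4.30) and SNORA32 (fold 2.54, -log10 q 2.99) had peaks in hNABP2 KO repeat 1 that ran past the end of the locus, and 0 counts in all libraries.

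Thus 6 of the 10 pairs of a locus and a library with a peak had no count there. The share was 18.8% of 8566 such pairs among other genes, and 38.8% of 67 among other genes no longer than the longest of the 132. The sources used here do not say how the counting treated strand, introns and shared reads. Without hNABP2 KO repeat 1 the number of loci with a run-on peak was 4.

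**Figure D5:**
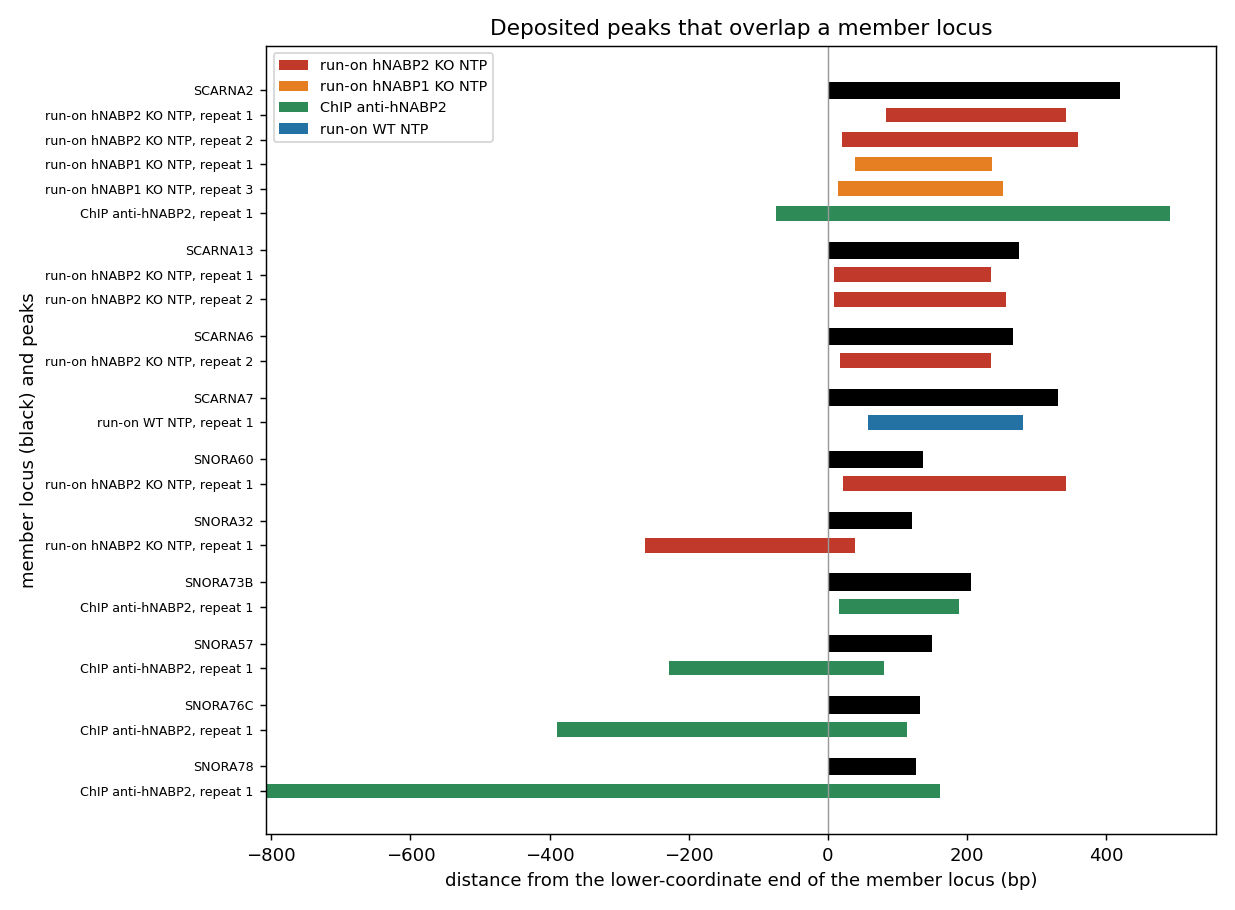
Deposited peaks (coloured bars, by group and repeat) that overlap a SNORA or SCARNA locus (black), drawn against distance in bp from the end of the locus with the lower coordinate. The run-on peaks of SCARNA2, SCARNA13, SCARNA6 and SCARNA7 lie inside the locus, whereas those of SNORA60 and SNORA32 run past it, and the ChIP peak of SCARNA2 covers the whole locus.

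Anti-hNABP2 ChIP peaks overlapped 5 loci (3.79%), against 35.0% of all genes and 1.08% of SNORD, all 5 in repeat 1 and 0 in repeat 2. SCARNA2 was wholly covered by a peak of fold 4.52 (-log10 q 56.9) and was the only one of the 132 with both a run-on and a ChIP peak. SNORA73B had a peak of 173 bp within the locus (fold 5.67, -log10 q 9.48). The peaks of SNORA78 (fold 5.64), SNORA76C (fold 5.60) and SNORA57 (fold 3.26) ran past the end of the locus. ChIP repeat 1 had 10055 peaks and repeat 2 had 2832. DRIP peaks overlapped 0 of the 132, against 1.01% of all genes, in lists of 13 and 167 peaks from hNABP2 KO and 173 and 107 from WT.

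At the promoters of the genes around these RNAs, peaks were more frequent than at the RNAs themselves. Promoter windows and RNA loci differ in length and position, and no correction was made for this. RefSeq promoter windows, 250 bases before to 50 after the start, were given for 99 of 119 such genes. ChIP peaks lay on 55 (55.6%), against 24.6% of all 27305 genes with a window, and run-on peaks on 42 (42.4%), against 19.1%. All 42 run-on windows came from hNABP1 KO repeat 3, which had a peak on 18.4% of all windows. All 55 ChIP windows were in repeat 1, which had a peak on 24% of all windows. ChIP repeat 2 had a peak on 7 of the 99 (7.07%), against 5.18% of all windows. The 99 windows were not matched to the others by how strongly their genes are transcribed, so the excess is not shown to be particular to these hosts. Both kinds of peak lay on 33 windows, 78.6% of those with a run-on peak and 60.0% of those with a ChIP peak. The same shares over all windows were not computed, so these values are not a trait of the host genes. SNHG7 and LOC124900276 have the same window, and both are counted. No RefSeq sequence of a SNORA or SCARNA was in the tables used, so the promoters shown are those of SNHG12, the host of SNORA16A, and SNHG10, the host of SCARNA13, where a ChIP repeat 1 and a hNABP1 KO repeat 3 run-on peak coincide. They are from RefSeq GRCh38.p14, 5′ to 3′, with the bases covered by both peaks in capitals. The SNHG12 window is chr1:28581824-28582123, minus strand, and the SNHG10 window is chr14:95534823-95535122, minus strand.
SNHG12: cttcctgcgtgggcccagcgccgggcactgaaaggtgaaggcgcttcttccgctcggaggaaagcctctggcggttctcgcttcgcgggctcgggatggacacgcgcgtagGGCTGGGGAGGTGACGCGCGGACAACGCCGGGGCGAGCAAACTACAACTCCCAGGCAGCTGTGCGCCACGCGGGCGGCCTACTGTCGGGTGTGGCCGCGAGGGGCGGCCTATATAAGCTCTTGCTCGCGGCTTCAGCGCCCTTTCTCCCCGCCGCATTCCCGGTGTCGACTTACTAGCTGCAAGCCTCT
SNHG10: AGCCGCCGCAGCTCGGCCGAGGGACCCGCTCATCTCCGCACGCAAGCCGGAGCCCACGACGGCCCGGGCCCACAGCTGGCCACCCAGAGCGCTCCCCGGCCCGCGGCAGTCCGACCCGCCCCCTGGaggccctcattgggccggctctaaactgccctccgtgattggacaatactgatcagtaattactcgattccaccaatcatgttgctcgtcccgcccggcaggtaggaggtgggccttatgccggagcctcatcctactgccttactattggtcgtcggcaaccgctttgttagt

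In SNHG12 the ChIP peak had a fold of 6.84 and the run-on peak one of 9.15, and both cover the same 189 bases, which begin upstream of the start site and run to the end of the window. In SNHG10 the folds were 3.12 in ChIP and 11.7 in run-on, and the shared bases are the first 126 of the window, upstream of the start. Motifs were searched on both strands. SNHG10 holds 4 matches of CCAAT, all in its lower-case part, and SNHG12 has 0; 34.6% of 35116 windows hold it. SNHG12 holds 1 match of CGGAAG, present in 19.5% of windows, and SNHG10 has 0. Neither holds an exact match of TATAAA, which 11.5% of windows do. SNHG12 does hold TATATAAG upstream of its start. Variants of the motif were not searched, so a TATA box is not excluded. GC content was 67.3% in SNHG12 and 65.0% in SNHG10, against a median of 58.7% over all windows.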

How the data were processed

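Per the labels, HT1080 run-on RNA was pulled down with a BrdU antibody and made into directional libraries. The authors' table holds raw counts per gene symbol, not normalized. For each peak the authors deposited a fold (ratio to local background), a -log10 p and a -log10 q. Per the submitters' processing notes, cutadapt 1.18, Bowtie2 2.3.5, SAMtools and MACS2 2.2.1 were used with hg38; the sources used here do not state their settings, the counting tool or its strand setting. The list of ChIP repeat 1 holds summits, so its extents and fold come from the authors' annotated table.

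Loci came from RefSeq (GRCh38.p14), 125 by symbol and 7 by synonym. Library shares have exact 95% binomial intervals (SciPy 1.17.1, Python 3.11.15); the floor of a count of 0 is 3 counts. Counts were tested with the edgeR 4.0.16 quasi-likelihood test (R 4.3.3) after filterByExpr and TMM, with Benjamini-Hochberg adjustment and a threshold of 0.05, in 1 model of 18 libraries (NTP) and 1 of 9 (genotype with NTP). Peaks were counted with an overlap of at least 1 bp. Alternatives were DESeq2 1.42.0, limma 3.58.1 (voom), other filters and scalings, the replicate block and left-out libraries. The fit was also run on simulated counts with known changes. These had no differences between repeats and changed only abundant genes, so they do not bear on RNAs with few counts. Named genes are those that passed the filter, the 20 with most counts, those with a run-on peak and fixed lists. Members and lists were chosen with earlier results of these data known.

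Repeat numbers were checked as pairs over 211 genes. With group means removed, the lowest correlation of same-numbered libraries was 0.395 or more in 5 comparisons, so numbers pair the samples there, and 0.0154 between NTP and no NTP in hNABP1 KO. The labels mention 2 independent experiments where 3 repeats are given, so p-values measure the spread between these libraries, which may be technical. IgG and RNase H libraries were not analysed here.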

Additional observations from a re-analysis of the deposited data

How the results depend on the processing

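Of 156 fits over the 8 comparisons, 128 tested at least 1 SNORA or SCARNA and called none. The other 28 tested none, among them the 3 genotype comparisons with NTP as reported, after filterByExpr on all 9 libraries. In those that tested any, the smallest adjusted p was 0.293 (edgeR, SNORA16A in WT, replicate block with 10 or more counts). Over all genes the count of calls was 0 in the model without a block. With the replicate block it was 5 for NTP in hNABP1 KO, where the numbers do not pair the libraries by the check used. With the block and 10 or more counts per gene it was 1 there, 16 for hNABP1 KO against WT and 19 for hNABP2 KO against hNABP1 KO, and the block changed no call of a SNORA or SCARNA. Leaving out single libraries or repeats gave 0 calls in every fit. The log2 fold change of SNORA73A had another sign in 3 of 90 alternatives: in hNABP2 KO it was -0.57 with limma voom and -0.89 without repeat 1, and in hNABP1 KO -0.30 without the no NTP repeat 3. The cause was not tested. Leaving out 1 library or repeat gave -0.89 to 4.16 in hNABP2 KO and -0.30 to 1.37 in hNABP1 KO.

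Leaving out 1 library moved the mean class share to between 0.0720% and 0.416% in hNABP2 KO with NTP and between 0.0549% and 0.250% with no NTP. The ranges were 0.0938% to 0.203% with NTP and 0.0654% to 0.145% with no NTP in hNABP1 KO, and 0.0780% to 0.143% with NTP and 0.122% to 0.320% with no NTP in WT. Loci with a run-on peak numbered 4 to 6 when 1 library was left out. Loci with a ChIP peak numbered 10 when loci were extended by 500 bp, and were 0 to 5 when 1 repeat was left out, 0 without repeat 1. Libraries of repeats 1 and 2 held 5272 to 19581 counts each, and most of these RNAs had 0 or 1 count in a library, where a difference was not detectable.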
